A study of Homo sapiens with 8 samples.

Results

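The binding of HoxC5 and Pbx4 was described at 31 genes that encode the WNT ligands and their receptors: 19 WNT ligands, 10 Frizzled receptors (FZD1 to FZD10) and the co-receptors LRP5 and LRP6. They were taken from 20162 protein-coding genes by name, and no measured value served as a filter. Earlier results of these data were known when the genes were chosen. A peak was assigned to a gene when its summit, the position of strongest signal that the peak caller gives, lay in the gene body or within 50 kb of an annotated transcription start site (TSS) of that gene. This region is called the window of the gene. Windows had a median length of 101.5 kb at the 31 genes and 112.3 kb at all protein-coding genes, and the 31 windows covered 3451 kb together. The lists held 2525 peaks (endogenous HoxC5 replicate 1), 170 peaks (replicate 2), 67196 peaks (overexpressed HoxC5) and 153620 peaks (overexpressed Pbx4), of which 9, 0, 126 and 231 had their summit in the windows of the 31 genes.

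All libraries came from PC-3, an established human prostate cancer cell line. Endogenous HoxC5 was precipitated from PC-3 cells with the genotype control in 2 libraries, replicates 1 and 2. HoxC5 was also precipitated from cells with Hoxc5 overexpression, and Pbx4 from cells with Pbx4 overexpression, in 1 library each. The same anti-HoxC5 antibody was used in all 3 HoxC5 libraries, and the 4 input libraries are not analysed here. The lists hold neither expression nor read totals, so neither the overexpression nor the identity of the line was checked, the depth of each library is unknown, and differences between the lists could not be tested against replicate error.

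WNT proteins are secreted, lipid-modified signals that bind Frizzled receptors, which cross the membrane as a bundle of helices, together with LRP5 or LRP6. In the canonical branch this stabilises β-catenin, which enters the nucleus and acts with the TCF/LEF factors, while other WNT proteins such as WNT5A act mostly through branches that control cell polarity and movement. HoxC5 is a homeodomain transcription factor, and Pbx4 belongs to the TALE homeodomain proteins that can bind DNA beside Hox proteins.

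Endogenous HoxC5 peaks that overlapped a peak of both overexpressed lists were found at 5 of the 31 genes, and the sequences of 4 of them are shown because they are WNT pathway sites found in 3 of the 4 lists. Each is given in hg19, on the + strand, as the 101 bp centred on the endogenous summit. Capitals mark 2 of the 7 short words that were sought on both strands within 50 bp of every summit. TGACTCA, or TGAGTCA on the other strand, is the AP-1 word, and TGACAG the Meis word. Over all 9 endogenous peaks at members the AP-1 word was present in 4 windows (44.4%, exact interval 13.7 to 78.8%), all at ligands and in 0 of 4 at receptors, beside 16% of all 2525 windows of the same length in this list. The Meis word was present in 1 of the 9 (11.1%, 0.281 to 48.2%), beside 5.94% of the list.
WNT7B, chr22:46365124-46365224: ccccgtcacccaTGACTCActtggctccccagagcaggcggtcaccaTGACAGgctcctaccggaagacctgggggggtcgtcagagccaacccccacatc
LRP5, chr11:68147948-68148048: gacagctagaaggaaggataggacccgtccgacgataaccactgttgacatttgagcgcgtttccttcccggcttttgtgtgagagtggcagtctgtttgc
WNT7A, chr3:13895525-13895625: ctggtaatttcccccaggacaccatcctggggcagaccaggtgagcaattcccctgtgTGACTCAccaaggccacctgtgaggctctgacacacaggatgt
WNT3A, chr1:228231340-228231440: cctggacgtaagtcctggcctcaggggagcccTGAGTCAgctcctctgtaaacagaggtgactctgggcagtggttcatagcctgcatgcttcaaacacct

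The summit windows of 4 overexpressed peaks, chosen after their values were seen, are shown for their high fold enrichment in the overexpressed lists. The first 3 are HoxC5 peaks in the windows of WNT2B, FZD4 and FZD8, and the last is the Pbx4 peak of highest fold at any of the 31 genes, in the window of WNT5A. Capitals mark the Hox word TAATGA, which reads as its reverse complement where it is on the other strand. They also mark the Hox-Pbx words TGATTAAT and TGATTGAT and the AP-1 word. At FZD4 the word TGATTAAT was present on both strands in overlapping copies. Over the whole overexpressed HoxC5 list, TGATTAAT was present in 0.807%, TGATTGAT in 0.796% and TAATGA in 8.41% of the summit windows, and the AP-1 word was present in 18.5% of those of the Pbx4 list. The HoxC5 peaks at WNT8A (fold 14.4) and FZD1 (fold 12.5) had higher folds than that at FZD8 (12.1) and are not shown. The WNT8A summit window carried TAATGA, while that of FZD1 carried none of the 7 words sought. A word is a match of letters and does not show which protein was bound.
WNT2B, chr1:113086731-113086831: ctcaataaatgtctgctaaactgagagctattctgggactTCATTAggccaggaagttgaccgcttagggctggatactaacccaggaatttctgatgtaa
FZD4, chr11:86643135-86643235: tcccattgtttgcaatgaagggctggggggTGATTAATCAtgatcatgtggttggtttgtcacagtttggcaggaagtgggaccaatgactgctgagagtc
FZD8, chr10:35925989-35926089: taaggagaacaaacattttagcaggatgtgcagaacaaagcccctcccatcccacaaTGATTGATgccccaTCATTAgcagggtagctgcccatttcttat
WNT5A, chr3:55569092-55569192: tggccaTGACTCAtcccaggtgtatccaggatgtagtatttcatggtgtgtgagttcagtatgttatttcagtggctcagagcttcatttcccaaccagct

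Endogenous HoxC5 was found at 7 of the 31 genes in replicate 1, namely WNT3A, WNT7A, WNT7B, WNT9A, FZD2, FZD8 and LRP5. This is 22.6% of the members, beside 17.1% of all protein-coding genes with a summit in this list. In replicate 2, 0 of the 31 genes had a summit, beside 1.47% of all protein-coding genes. The replicate 2 list was so short that a single member with a summit would already have been above that share. Over joined windows, in which each region counts once, the 9 summits of replicate 1 came to 2.35 times the density of all protein-coding windows. The exact Poisson interval of 1.07 to 4.46 covers counting error only. It treats the summits as independent, although WNT3A and LRP5 held 2 each. Ligands had 5 of these summits at 0.00262 per kb and receptors had 4 at 0.0026 per kb. The densities of the ligand and receptor windows were thus nearly equal. Counted by gene, the median density was 0 per kb at the members and at all protein-coding genes. The pooled ratio of 2.35 thus does not describe the median member. At a fold enrichment of at least 5 the number of members with a summit was 4, beside 9.53% of all protein-coding genes. Without replicate 1 the number of members was 0.

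The ligand peaks of endogenous HoxC5 were all in introns. The peak of highest fold among the 9 lay in an intron of WNT7B (chr22:46364963-46365288), a ligand with roles in lung and in the vessels of the brain, 7.87 kb from the 5′ end of the gene. Its fold enrichment, the ratio of signal to the local background, was 10, and 2.89% of the list had at least this fold. WNT7A, the closest relative of WNT7B, held a peak with a fold of 6.88 in an intron 26 kb from its 5′ end (chr3:13895348-13895739). WNT3A, a ligand much used to activate β-catenin signalling, held a pair of peaks in introns. The first (chr1:228231291-228231454) had a fold of 4.34 and overlapped both overexpressed lists, and the second (chr1:228233646-228233853), with a fold of 7.98, overlapped only the Pbx4 list. The WNT9A peak had the lowest fold of the 9, 3.58, and overlapped both overexpressed lists.

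At the receptors, LRP5 held endogenous HoxC5 peaks at 64.2 kb and 67.9 kb from its 5′ end, both in introns. The second (chr11:68147746-68148110) had a fold of 6.26 and overlapped both overexpressed lists, and the first (chr11:68144239-68144391) had a fold of 4.74 and overlapped neither. The peaks in the windows of FZD8 (chr10:35902767-35902919, fold 3.59) and FZD2 (chr17:42677658-42677810, fold 4.41) lay outside protein-coding genes, 28.4 kb and 42.9 kb downstream of the TSS, and neither overlapped a peak of another list. The FZD8 peak was closer to a TSS of GJD4, a gap junction gene, at 8.6 kb. None of the 9 summits lay within 1 kb of a protein-coding TSS, beside 24.3% of the whole list, but a share of 0 of 9 has an upper exact limit of 33.6%. Of the 9 peaks, 5 (55.6%, exact interval 21.2 to 86.3%) overlapped an overexpressed HoxC5 peak, beside 76.4% of the whole list. The overlap with Pbx4 was 6 of 9 (66.7%, 29.9 to 92.5%), beside 70.8%.

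Overexpressed HoxC5 was found at 29 of the 31 genes, all but WNT2 and FZD10, beside 87.8% of all protein-coding genes. Overexpressed Pbx4 was found at 30 genes, all but FZD10, beside 93.0%. These shares were close to those of all genes. The members had a median of 4 HoxC5 summits (range 0 to 11) and 8 Pbx4 summits (0 to 22), the same medians as all protein-coding genes. Per kb of window the median was 0.03 for HoxC5 and 0.0638 for Pbx4, beside 0.0314 and 0.0597 over all protein-coding genes. The median member thus stood at the level of the median gene in both lists, and the extremes came from single genes. Pbx4 had more summits than HoxC5 at 24 of the 31 genes (77.4%, beside 72.1% of all protein-coding genes), and HoxC5 had more at WNT7B, WNT8A, FZD1 and LRP5. Across the members, the densities of both factors had a Pearson r of 0.46 and a Spearman rho of 0.50, beside 0.63 and 0.66 across all protein-coding genes, where neighbouring genes share peaks.

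**Figure D1:**
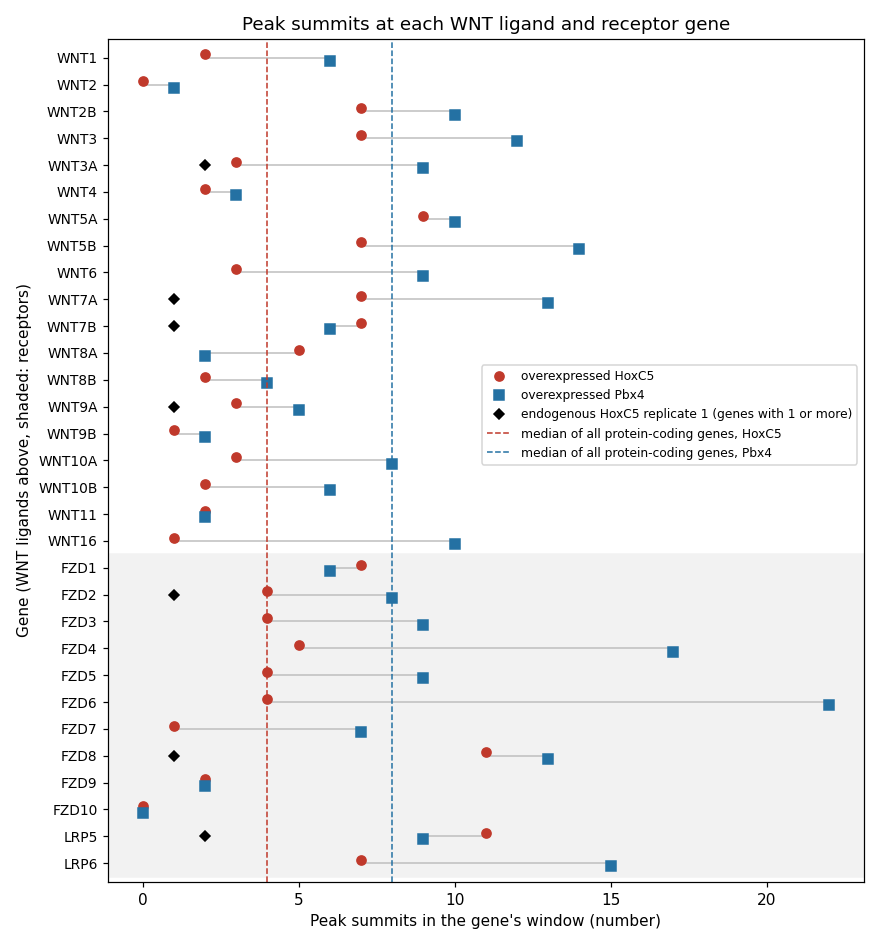
Number of peak summits in the window of each of the 31 genes (horizontal axis) for overexpressed HoxC5 (circles), overexpressed Pbx4 (squares) and endogenous HoxC5 replicate 1 (diamonds, drawn only where there is 1 or more), with dashed lines at the medians of all protein-coding genes, 4 and 8. FZD6 and FZD4 lie farthest to the right with 22 and 17 Pbx4 summits, FZD8 and LRP5 have 11 HoxC5 summits each, and FZD10 has none.

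Among the ligands, WNT5A had the highest density of overexpressed HoxC5, with 9 summits and 0.0748 per kb, and 13.3% of all protein-coding genes were higher. WNT7B followed with 7 summits (0.0655 per kb) and WNT7A with 7 (0.0615 per kb). WNT2B, WNT3 and WNT5B also had 7 HoxC5 summits each, in longer windows of 148.2 kb, 161.7 kb and 214.9 kb. WNT8A, a ligand of early embryos, had 5. The other ligands had 3 or fewer, and WNT2 had 0. For Pbx4, WNT7A was the ligand of highest density, with 13 summits and 0.114 per kb. WNT5B had 14 and WNT3 had 12. WNT16, a ligand with a role in bone, had 10 Pbx4 summits beside 1 of HoxC5. WNT2, with 1 Pbx4 summit in an intron, was the lowest. Some ligand genes are neighbours and shared part of their windows, so that the 8 Pbx4 and 3 HoxC5 summits shared by WNT6 and WNT10A and the 6 and 2 shared by WNT1 and WNT10B were counted for both genes. The pairs WNT3 and WNT9B, and WNT3A and WNT9A, each shared 2 Pbx4 summits and 1 HoxC5 summit.

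Among the receptors, FZD8 had the highest HoxC5 density of all 31 genes, with 11 summits and 0.11 per kb, and 3.43% of protein-coding genes were higher. FZD1 had 7 (0.07 per kb), LRP5 had 11 in a longer window (0.0469 per kb), LRP6 had 7 (0.0298 per kb) and FZD4 had 5 (0.05 per kb). FZD2, FZD3, FZD5 and FZD6 had 4 each. For Pbx4 the order was different. FZD6, a receptor of the cell polarity branch, had 22 summits at 0.217 per kb, and 0.888% of protein-coding genes were higher. FZD4, the receptor for Norrin in retinal vessels, had 17 (0.17 per kb, with 3.19% of genes higher), LRP6 had 15 and FZD8 had 13 (0.13 per kb). Of the 17 summits at FZD4, 3 had its TSS as the nearest protein-coding TSS. FZD9 had 2 summits in each overexpressed list, and FZD10 had 0 in all 4 lists.

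Receptors and ligands were then compared over the joined windows of each class, in which each summit was counted once. For overexpressed HoxC5, receptors had 60 summits at 0.039 per kb and ligands had 66 at 0.0345 per kb, a log2 ratio of 0.17 with an exact binomial interval of -0.36 to 0.70. For Pbx4, receptors had 117 at 0.076 per kb and ligands had 114 at 0.0597 per kb, a log2 ratio of 0.35 with an interval of -0.04 to 0.73. Both intervals include 0, so with all 31 genes neither difference was larger than counting error. A single gene moved these ratios, and the genes left out here were chosen after the values were seen. Without FZD8 the HoxC5 ratio was -0.02, without FZD6 the Pbx4 ratio was 0.15 (-0.26 to 0.55), and without FZD10, which has no summit, the Pbx4 ratio was 0.45 (0.06 to 0.83). Leaving out a receptor with no summit can only raise the receptor density, so no difference is read from that interval. When the co-receptors were left out, the Pbx4 ratio was 0.54 (0.13 to 0.95) for the Frizzled receptors alone. Of their 93 Pbx4 summits, FZD6 and FZD4 held 22 and 17. The summits are not independent draws, since they cluster, and the intervals cover counting error only. Against all protein-coding windows, the pooled density of the members was 1.26 times as high for HoxC5 (interval 1.05 to 1.49) and 1.07 times for Pbx4 (0.934 to 1.21). Counted by gene, the median density of the members was 0.03 per kb for HoxC5, beside 0.0314, and 0.0638 for Pbx4, beside 0.0597. The pooled ratio for HoxC5 thus does not describe the median member.

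The summits of each class were then counted by their distance from the TSS. For overexpressed HoxC5 within 1 kb of a TSS of the class, receptors had 12 summits at 0.265 per kb. Ligands had 11 at 0.126 per kb, beside 0.123 per kb at all protein-coding TSSs. Between 1 and 5 kb, receptors had 14 summits at 0.0906 per kb and ligands had 10 at 0.0413 per kb. All protein-coding genes had 0.0277 per kb, with distance taken from the nearest TSS of any of them. A summit in this class of distance can therefore lie at the TSS of another gene. The FZD3 peaks 4.02 kb and 3.61 kb upstream, for example, were 42 bp and 318 bp from a TSS of FBXO16. The values of the classes and of all genes are thus not like measures. The log2 ratio of receptors to ligands was 1.07 within 1 kb (exact interval -0.24 to 2.39) and 1.13 from 1 to 5 kb (-0.15 to 2.46), so both differences were within counting error. FZD8 gave 6 of these 14, and 1 of the 12 within 1 kb, where 8 receptors had a summit. Beyond 5 kb the densities of both classes were between 0.0222 and 0.0331 per kb. For Pbx4 within 1 kb, receptors had 5 summits (0.111 per kb) and ligands had 6 (0.069 per kb), beside 0.105 per kb at all protein-coding TSSs. The 19 ligand genes had 87 kb within 1 kb of a TSS, and the 12 receptor genes had 45.2 kb. Some genes of both classes have several annotated TSSs.

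The 23 overexpressed HoxC5 summits within 1 kb of a member TSS fell on 14 genes. FZD1, FZD2, FZD6, LRP6 and WNT2B had 2 each, and FZD4, FZD5, FZD8, LRP5, WNT3, WNT7B, WNT9B and WNT10A had 1 each. The remaining 5 were at WNT5A, which has 7 annotated TSSs. The strongest of the 23 was at FZD1 (chr7:90893365-90893996), 12 bp downstream of the TSS in the noncoding part of its exon, with a fold of 9.15. It was followed by a WNT5A peak (chr3:55520173-55520694) with a fold of 9.12, 749 bp downstream of an internal TSS. The WNT2B peaks were 237 bp and 270 bp upstream of separate TSSs, with folds of 7.42 and 7.24. The FZD8 peak at the TSS (chr10:35930958-35931698) was the widest, at 741 bp, with a fold of 6.89. The lowest fold was at WNT10A, 3.44. Of the 23, 5 overlapped a Pbx4 peak (21.7%, exact interval 7.46 to 43.7%), at FZD8, WNT3, FZD1 and a pair at WNT5A, beside 40.6% of the HoxC5 summits within 1 kb of any protein-coding TSS.

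FZD8, a Frizzled receptor encoded by a gene with a single exon, held a run of HoxC5 peaks. Of its 11 overexpressed HoxC5 summits, 10 lay within a span of 10 kb, from 1.13 kb upstream of the TSS to 8.54 kb downstream of it. Over all protein-coding genes, 18 (0.0893%) had as many in any span of 10 kb, a length chosen after the values were seen, and the median was 2. In the exon lay 5 of these summits, 3 in the coding part and 2 in noncoding parts. The peak of highest fold in the run, 12.1 (chr10:35925920-35926148), lay 5.18 kb downstream of the TSS, beyond the 3′ end of the gene, and carried the words TGATTGAT and TAATGA shown above. The folds of the other 9 ranged from 2.33 to 6.89, beside a median of 6.17 for the whole list. The count in a span set no limit on fold. Pbx4 had 7 summits in a span of 10 kb there, with folds up to 5.19, and 3.53% of protein-coding genes had as many. Of the 11 HoxC5 peaks, 5 overlapped a Pbx4 peak, while the coding part held HoxC5 summits without Pbx4.

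WNT5A, a ligand of the β-catenin-independent branches, had 7 of its 9 HoxC5 summits within a span of 10 kb, and 1.12% of protein-coding genes had as many. They ran from 0.935 kb upstream of the 5′ end to 5.55 kb downstream of it, with folds of 3.56 to 9.12. In the WNT5A window, 5 of 10 Pbx4 summits lay in introns of ERC2, a synaptic gene whose annotation reaches upstream of WNT5A. The Pbx4 peak of highest fold at any member, 17.6 (chr3:55568973-55569302), was 1 of these, 44.6 kb upstream of WNT5A, and it overlapped no HoxC5 peak. At WNT5A, 4 of 9 HoxC5 peaks overlapped Pbx4.

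FZD4 and FZD6 had the highest Pbx4 densities of the 31 genes, while 28.6% and 42.1% of all protein-coding genes had a higher HoxC5 density. FZD6 had 22 Pbx4 peaks across its window, with folds from 2.94 to 16.1, and 7 of them inside the gene. Its 4 HoxC5 peaks, with folds from 4.47 to 9.79, overlapped none of them. FZD4 had 17 Pbx4 peaks with folds from 3.68 to 13.5 and 5 HoxC5 peaks, of which 3 overlapped Pbx4. The TSS of FZD4 was the nearest protein-coding TSS for only 3 of the 17 Pbx4 summits and 1 of the 5 HoxC5 summits. The others were nearest to a TSS of PRSS23, a serine protease gene, or of TMEM135. Inside FZD4 lay 1 Pbx4 summit and 0 HoxC5 summits. The HoxC5 peak of second highest fold at any member, 21.2 (chr11:86642736-86643464), was in the FZD4 window but in an intron of PRSS23, and its summit was 8643 bp from a PRSS23 TSS and 23.3 kb from that of FZD4. It carried the TGATTAATCA letters shown above and overlapped a Pbx4 peak with a fold of 8.01. Only 0.522% of the HoxC5 list had at least its fold.

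**Figure D2:**
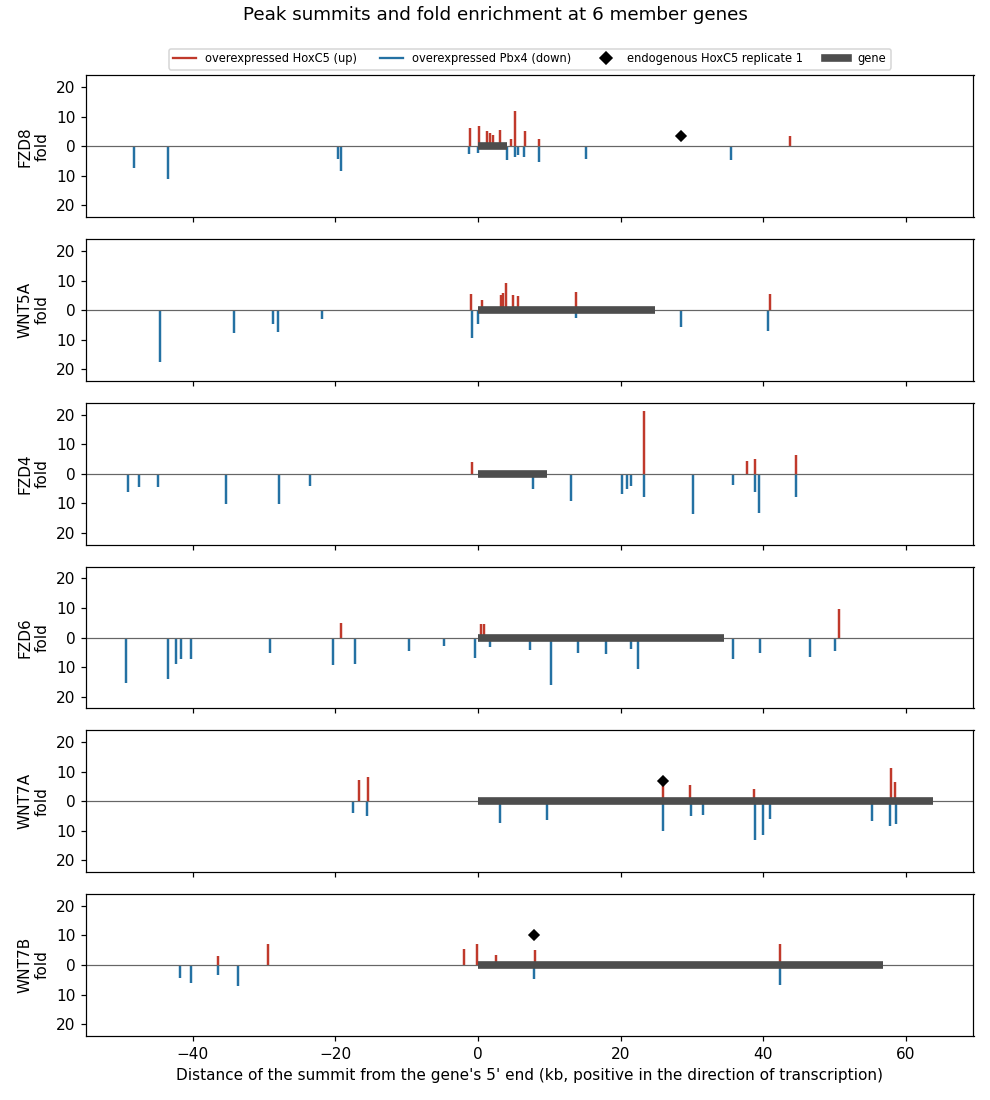
Summits at 6 genes by distance from the 5′ end of the gene (kb, positive in the direction of transcription) with fold enrichment as line height, overexpressed HoxC5 upwards and Pbx4 downwards. Diamonds are endogenous HoxC5 peaks at their fold and the thick bar is the gene. The run of 10 HoxC5 lines at FZD8, the HoxC5 line of 21.2 at FZD4, the spread of 22 Pbx4 lines at FZD6 and the joint position of all 3 at WNT7A and WNT7B can be seen.

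The HoxC5 peak of highest fold at any member was 21.3, in the window of WNT2B (chr1:113086678-113086899), in an intron of ST7L and 2184 bp from an ST7L TSS. The third, 14.4, was in the window of WNT8A (chr5:137464120-137464326), in a coding exon of NME5 and 97 bp from the NME5 TSS. The fourth, 12.5 (chr7:90868330-90868947), was 24.9 kb upstream of FZD1, the nearest protein-coding gene, and the fifth was that at FZD8. All 5 overlapped a Pbx4 peak. After WNT5A, the Pbx4 peaks of highest fold were at WNT3 (16.5, chr17:44835978-44836412, 4618 bp from a TSS of NSF), FZD6 (16.1 in an intron and 15.4 at 49.3 kb upstream) and WNT9A (15.3, chr1:228122102-228123531). The WNT9A peak was in an intron, was 1430 bp wide and overlapped HoxC5. Over all members the nearest protein-coding TSS was that of a member for 92 of 126 HoxC5 summits (73%) and 151 of 231 Pbx4 summits (65.4%).

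At the genes with an endogenous HoxC5 peak, the position of the strongest overexpressed peak was compared with it. The same was not counted over all protein-coding genes, so no trait of the members is read from it. At FZD2 and FZD8 the endogenous peak overlapped neither overexpressed list, so no overlap was possible there. The HoxC5 peaks of highest fold were 11.4 at WNT7A (57.9 kb from the 5′ end), 7.02 at WNT7B (42.3 kb, with a second of 7.02 after rounding at 29.4 kb upstream), 5.44 at WNT9A (13.1 kb), 6.17 at FZD2 (23.8 kb upstream), 12.1 at FZD8 and 8.72 at LRP5 (1.97 kb), and none of these overlapped the endogenous peak. WNT3A was the exception, where the peak at 36.5 kb had a fold of 5.37 and overlapped both the endogenous and the Pbx4 peak. The Pbx4 peaks of highest fold were 13.2 at WNT7A, 7.1 at WNT7B, 15.3 at WNT9A, 10.1 at WNT3A, 9.32 at FZD2, 10.9 at FZD8 and 8.36 at LRP5. Of these, only the WNT3A peak overlapped the endogenous peak.

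The overlap of both overexpressed lists was counted at the members. Of the 126 overexpressed HoxC5 peaks, 63 (50%, exact interval 41 to 59%) overlapped a Pbx4 peak, beside 65.2% of the HoxC5 peaks in all protein-coding windows and 67.7% of the whole list. The share was 53% at ligands (40.3 to 65.4%) and 46.7% at receptors (33.7 to 60%). In the other direction, 61 of 231 Pbx4 peaks (26.4%, 20.8 to 32.6%) overlapped HoxC5, beside 29.2% in all protein-coding windows. When the Pbx4 list was limited to as many peaks as the HoxC5 list, 25.4% of the HoxC5 peaks at members overlapped it (18.1 to 33.9%), beside 45% of those in all protein-coding windows and 47.7% of the whole list. The HoxC5 peaks at members had a median fold of 5.51, beside 6.17 for the list, and a median GC content of 52.5%, beside 48.5%. The part of fold and GC content in the overlap was not tested.

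The AP-1 word was present in 17 of 126 HoxC5 summit windows at members (13.5%, 8.06 to 20.7%), beside 18.8% in all protein-coding windows. It was in 18.2% of those at ligands (9.76 to 29.6%) and 8.33% of those at receptors (2.76 to 18.4%), with intervals that overlap. At Pbx4 summits it was present in 20.2% at ligands and 12.8% at receptors, beside 18.1%. The Meis word was present in 3.17% of the HoxC5 windows at members (0.872 to 7.93%), beside 7.75%, and in 11.3% of the Pbx4 windows, beside 10.6%. The TCF/LEF word CTTTGAT, the site of the factors at the end of the canonical pathway, was present in 0 of 126 HoxC5 windows (upper limit 2.89%), beside 1.11%, and in 5 of 231 Pbx4 windows (2.16%, beside 1.84% in all protein-coding windows), at WNT16 in 2 peaks and at FZD1, FZD3 and LRP6. The Hox word TAATTA was present in 2.38% of the HoxC5 windows and TAATGA in 9.52%, beside 1.89% and 7.81%.

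Of 50 other genes of the pathway, 9 (18%) had an endogenous HoxC5 summit in replicate 1, beside 17.1% of all protein-coding genes, and 0 had one in replicate 2, beside 1.47%. An overexpressed HoxC5 summit was present at 47 (94%), beside 87.8%, and a Pbx4 summit at all 50, beside 93.0%. Their median densities were 0.0279 per kb for HoxC5 and 0.0603 for Pbx4, close to those of all protein-coding genes. The endogenous summits were at 4 of 8 nuclear genes (TCF7L2, BCL9, BCL9L and PYGO2, which act with β-catenin on target genes), at 2 of 12 cytoplasmic genes (DVL1 and DVL3, which relay the signal from Frizzled) and at WLS, DKK1 and RNF43. The whole list stood near the share of all protein-coding genes, 17.1%, and its groups were small, with 1 of 13 secreted antagonists and 0 of 6 other receptors. WLS, which carries WNT proteins to the cell surface, had 2 endogenous, 19 overexpressed HoxC5 and 35 Pbx4 summits. DKK1, a secreted inhibitor that binds LRP5 and LRP6, had 1, 14 and 13. The 13 secreted antagonists had a median of 2 HoxC5 summits, in a range of 1 to 16, and 7 Pbx4 summits.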

How the data were processed

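ChIP-Seq of HoxC5 and Pbx4 in PC-3 cells was deposited as 1 peak list per ChIP library. According to the methods and the submitters' processing notes, BWA was used by the authors to align reads to hg19, low-quality and duplicate reads were discarded, and MACS2 called the peaks. Its version, its control libraries and any masking of regions are not given in the sources used here. The deposited lists give for each peak the summit, a fold enrichment (the ratio of signal to background around it), a score derived from q, and the −log10 of both its q and its p. Folds were compared within a list only, and the score was not used in any result. The list lengths differ widely, so counts were read beside all protein-coding genes of the same list.

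Genes, TSSs and exons came from GENCODE 44 lifted to GRCh37, the build of the lists. Every peak end fell within the chromosome lengths of that build. Windows joined the gene body and 50 kb on each side of every annotated TSS. Overlap of peaks meant at least 1 bp. An intron means inside a gene and in no annotated exon. The sequence of 1 endogenous peak is not reported here. Words were sought on both strands within 50 bp of the summit in the GRCh37 sequence. Shares have exact Clopper-Pearson intervals at 95%, densities exact Poisson intervals, and both cover counting error only. With 1 library per overexpressed condition, and with the endogenous replicates differing as much as they did, no test between conditions was made.

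The members, the 50 other pathway genes, the words and the alternatives were chosen with earlier results of these data known. Peaks described singly were all endogenous peaks at members, the 5 peaks of highest fold per overexpressed list, the strongest overexpressed peak at each member with an endogenous peak, and HoxC5 peaks within 1 kb of a member TSS. The classes of distance, the runs at FZD8 and WNT5A, the accounts of FZD4 and FZD6 and the alternatives that leave out FZD6, FZD8, FZD10 or the co-receptors were chosen after the values were seen. The counting was tested on simulated data, where 60 of 60 gene windows and 400 of 400 peaks came out right. The software was pysam 0.24.0, scipy 1.17.1, pandas 2.3.3, numpy 2.4.6 and matplotlib 3.10.9 under Python 3.11.15.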

Additional observations from a re-analysis of the deposited data

How the results depend on the processing

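Of 64 recomputed values, 51 stayed within 1.5 times the reported count or within its counting interval with the same sign, 10 moved and 3 changed sign. Not all of these were separate checks. The counts for both replicates together repeated those of replicate 1 at each shared setting. The 0 of replicate 2 could not change under a narrower window or a stricter filter. The number of members with an endogenous HoxC5 summit in replicate 1, and in both replicates together, was 7 and became 4 at a fold of at least 5 and 4 at a −log10 q of at least 5, beside 9.53% and 8.61% of all protein-coding genes in replicate 1. Leaving out a replicate gave 0 to 7 members. With the gene body alone as the window, 18 members had an overexpressed HoxC5 summit (55.4% of all protein-coding genes) and 18 a Pbx4 summit (61.9%). The log2 ratio of receptors to ligands turned to -0.19 for HoxC5 at a fold of at least 5, to -0.02 for HoxC5 without FZD8 and to -0.27 for Pbx4 in the gene body alone. The share of HoxC5 peaks at members that overlap Pbx4, 50%, became 40.2% at a fold of at least 5, 40.2% at a −log10 q of at least 5, and 25.4% when the Pbx4 list was limited to the length of the HoxC5 list. Of the HoxC5 peaks in all protein-coding windows, 45% overlapped the limited list, and their share at the stricter filters was not counted. The stricter filters and the shorter list hold fewer peaks by construction, and the cause of the changed signs was not tested.

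The depth of each library is unknown, and counts of peaks depend on it. No paired analysis was possible because no result comes from a test and replicate numbers are shared only by the endogenous libraries and their inputs, which are not analysed here. A summit within 50 kb of a TSS need not act on that gene, and 34 of 126 HoxC5 summits were closer to a TSS of another gene.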

Other observations

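The Hox-Pbx words TGATTGAT and TGATTAAT were about as rare at the 31 genes as elsewhere, in 1.59% and 0.794% of the HoxC5 summit windows, beside 0.693% and 0.748% in all protein-coding windows. In the Pbx4 list they were in 0.433% and 0.866%, beside 0.454% and 0.664%. In the overexpressed HoxC5 list they were present in 3 of 126 summit windows. These were at FZD8 (chr10:35925920-35926148, fold 12.1) and in 2 peaks of the FZD4 window (chr11:86642736-86643464, fold 21.2, and chr11:86628743-86628964, fold 4.21). The first 2 of these overlapped a Pbx4 peak and the third did not. Both peaks of the FZD4 window lay in introns of PRSS23. Their summits were 8.64 kb and 23 kb from a PRSS23 TSS, and 23.3 kb and 37.7 kb from that of FZD4. In the Pbx4 list the words were also in 3 of 231 summit windows, at the same FZD8 site with a fold of 3.46, in an intron of NSF in the window of WNT3 (chr17:44803563-44803980, fold 9.09) and in an intron of CPED1 in the window of WNT16 (chr7:120928947-120929314, fold 9.59). The WNT3 and WNT16 sites overlapped no HoxC5 peak.

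FZD7, a receptor close in sequence to FZD1 and FZD2, had 1 HoxC5 summit beside 7 Pbx4 summits. That summit (chr2:202929025-202929158, fold 4.72) lay 30.5 kb downstream of the TSS and overlapped a Pbx4 peak with a fold of 4.75.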
